A study of Mus musculus with 19 samples.

Results

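The 9 genes described here mark the primitive endoderm of the mouse blastocyst: *Gata6*, *Gata4*, *Sox17*, *Sox7*, *Pdgfra*, *Dab2*, *Col4a1*, *Col4a2* and *Cubn*. They were taken from the gene counts by their symbols, out of 41388 genes in the table, and all 9 reached 10 counts in some embryo, as did 17137 genes in all, which were tested. *Gata6* was treated as the early gene and the other 8 as late genes. RNA-seq libraries of 19 single blastocysts were compared, 8 *Upf2*-null (*Upf2*-/-) and 11 littermate controls (*Upf2*+/+). UPF2 is a core factor of nonsense-mediated RNA decay (NMD), the pathway that degrades transcripts whose stop codon is read as premature. All embryos came from crosses of *Upf2* heterozygous mice on a C57BL/6 background, in which Cre driven by the *E2a* promoter, which is active early in the preimplantation embryo, had deleted exons 2 and 3 and left a truncated protein without NMD activity. Females aged 4 to 8 weeks were superovulated with 5 IU of each gonadotropin. Zygotes were stripped of cumulus cells, cultured in M16 medium and collected as early blastocysts 90 to 94 h after hCG.

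Library totals ran from 4068350 to 5993745 counts in *Upf2*-null embryos and from 4056072 to 5854659 in controls. By these totals 3 counts, the limit that a count of 0 allows, are worth 0.501 to 0.740 per 1000000 counts, before any scaling. CPM are counts per 1000000 counts of the library, scaled by edgeR's trimmed mean of M values. *Upf2* itself averaged 90.9 ± 21.3 CPM in the 8 *Upf2*-null embryos and 57.8 ± 16.5 CPM in the 11 controls (SD), a count over the whole gene, which does not check the deletion of 2 exons. Control embryo 5 stood apart from the rest, and *Upf2*-null embryo 2 did so less clearly. Values without both embryos are given below, a choice made after the data were seen. Of 8977 genes with a median of at least 10 CPM, control embryo 5 had under 10 counts for 792 (8.82%) and *Upf2*-null embryo 2 for 209 (2.33%), against 0.0334% to 1.83% in the other embryos. Of 16 cumulus and granulosa cell markers, 13 had fewer than 10 counts in every embryo, and *Fshr*, *Cyp19a1* and *Lhcgr* had none. The exceptions were *Amhr2*, *Star* and *Cyp11a1*, and the summed level of the list ran from 21.3 to 63.8 CPM in *Upf2*-null embryos and from 10.8 to 75.5 CPM in controls. Each library holds a whole embryo, so fewer cells of a type and less RNA per cell cannot be told apart.

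The primitive endoderm is the extra-embryonic lineage that separates from the epiblast inside the inner cell mass. Its precursors first lie mixed with epiblast precursors, and FGF signalling through ERK favours the GATA6-expressing state over the NANOG-expressing one. *Gata6* is switched on first and in most cells of the early blastocyst, and the transcription factors SOX17, GATA4 and SOX7 follow in the cells that commit. These cells carry the receptor PDGFRA on their surface. They later form an epithelium that takes up proteins by endocytosis (cubilin, megalin and their adaptor DAB2), and lay down a basement membrane of type IV collagen and laminin. Several of these genes are not exclusive to the lineage, since *Dab2* and *Gata6* are also transcribed in trophectoderm.

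None of the 9 genes differed between the genotypes at an adjusted p under 0.1 from edgeR's quasi-likelihood test, where 33 of the 17137 genes tested were called (0.193%). None had an unadjusted p under 0.05 either, against 12.5% of all genes. DESeq2, which called 1.03% of the genes tested, also called none of the 9. Limma voom with quality weights, which called 90 of the 17137 genes higher and 24 lower, called none of them either. The lowest adjusted p of any of the 9 in 32 fits was 0.293, for *Cubn* without control embryo 6. Of the 9 log2 fold changes (*Upf2*-null minus control), 7 were above 0 and 2 below, with a median of 0.26 beside −0.02 over all genes. Without *Upf2*-null embryo 2 and control embryo 5, 6 were above 0 and 3 below, with a median of 0.09. How narrowly a difference is bounded varied widely between the genes. The 95% interval of the log2 fold change spanned −0.14 to 0.17 for *Dab2* and −0.26 to 0.42 for *Gata6*, but −2.92 to 2.18 for *Sox17*. Changes of several fold in either direction therefore remained within the intervals of *Sox17*, *Gata4* and *Sox7*.

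**Figure D1:**
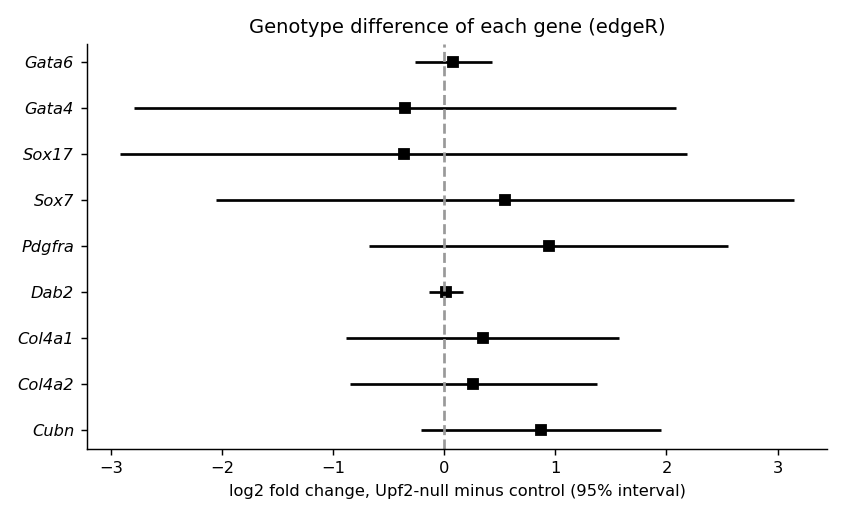
Log2 fold change of each primitive endoderm gene (horizontal axis, *Upf2*-null minus control) from edgeR, with the 95% interval as a line, 8 embryos against 11. Every interval crosses 0; those of *Dab2* and *Gata6* are the narrowest and those of *Sox17*, *Gata4* and *Sox7* the widest.

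*Gata6*, the zinc-finger factor that opens the primitive endoderm programme, lies on chromosome 18 of GRCm38 from 11052064 to 11085635 (plus strand). It was present in every embryo. In *Upf2*-null blastocysts it ran from 92.1 CPM through a median of 151 to 193 CPM, and in controls from 74.5 CPM through 133.6 to 198 CPM. The ranges overlapped almost entirely, and 6 of 8 *Upf2*-null embryos lay above the control median. The means were 144 ± 31.2 (SD, n = 8) and 136 ± 36.4 CPM (SD, n = 11), a fitted log2 difference of 0.08 (SE 0.17, edgeR adjusted p = 0.940). Its biological coefficient of variation, the spread between embryos beyond counting error, was 26.1%, beside a median of 64.4% over all genes. Without *Upf2*-null embryo 2, which had the highest *Gata6* level of its genotype, and control embryo 5, the log2 fold change was −0.03. The first 504 bases of the gene overlap the noncoding gene *1010001N08Rik* on the other strand, which had 1776 counts in all embryos together beside 13226 for *Gata6*, and since the strand of counting is not given in the sources used here, reads from the pair cannot be told apart there. Opposite-strand genes that overlap *Dab2*, *Col4a1*, *Col4a2* and *Cubn*, the collagens themselves aside, had 0 to 6 counts in all embryos together where the table lists them.

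The late transcription factors were near the limit of detection in most embryos, and the embryos that carried each factor overlapped only in part. At least 10 counts were reached by *Gata4* in 4 of 8 *Upf2*-null and 5 of 11 control embryos, by *Sox17* in 1 and 3, and by *Sox7* in 3 and 5. Both genotypes held embryos with none of the 3 factors at that level, 2 of 8 *Upf2*-null and 4 of 11 controls. Only control embryo 3 reached it for all 3, and a pair of factors was found in 2 *Upf2*-null and 4 control embryos. Their biological coefficients of variation were 179% (*Gata4*), 181% (*Sox17*) and 198% (*Sox7*).

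*Gata4*, a second GATA factor of the lineage, lies on chromosome 14 from 63198922 to 63271692 (minus strand). In *Upf2*-null blastocysts it ran from 0 through a median of 2.39 to 9.06 CPM, and in controls from 0 through 0.945 to 19.0 CPM. It had no count in *Upf2*-null embryos 2 and 8 and in 5 controls. The highest value was that of control embryo 4, with 90 of the 205 control counts. Its fitted log2 fold change was −0.35 (SE 1.17, edgeR adjusted p = 0.969), and without control embryo 4 it was 0.42.

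*Sox17*, an HMG-box factor required for endoderm, lies on chromosome 1 from 4490931 to 4497354 (minus strand). *Upf2*-null embryo 2 held 62 of the 73 counts of its genotype, a level of 11.0 CPM, while no other *Upf2*-null embryo passed 1.18 CPM. Among controls, embryo 3 had 13.4 CPM, embryo 10 had 5.16 CPM and embryo 4 had 2.54 CPM, and the remaining 8 had at most 3 counts. Its fitted log2 fold change was −0.37 (SE 1.23, edgeR adjusted p = 0.969). Its value rested on single embryos, at −2.70 without *Upf2*-null embryo 2 and 0.69 without control embryo 3. DESeq2, which replaces counts that it takes for outliers, gave −2.68 with an unadjusted p of 0.0228 and an adjusted p of 0.404.

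*Sox7*, a close relative of *Sox17*, lies on chromosome 14 from 63943673 to 63950732 (plus strand), 0.672 megabases from *Gata4*. *Upf2*-null embryos 8, 2 and 3 had 20.5, 11.0 and 4.71 CPM, and the other 5 had at most 1 count. Among controls, embryo 1 had 12.8 CPM and embryo 3 had 7.94 CPM, and 4 embryos had no count. Its fitted log2 fold change was 0.55 (SE 1.25, edgeR adjusted p = 0.948), and −0.45 without *Upf2*-null embryo 8. *Upf2*-null embryo 2 was thus high for both SOX factors at 62 counts each, with no count of *Gata4*. It also held 254 of the 396 *Upf2*-null counts of *Hnf4a*, a nuclear receptor of visceral endoderm that was looked up after these values were seen.

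**Figure D2:**
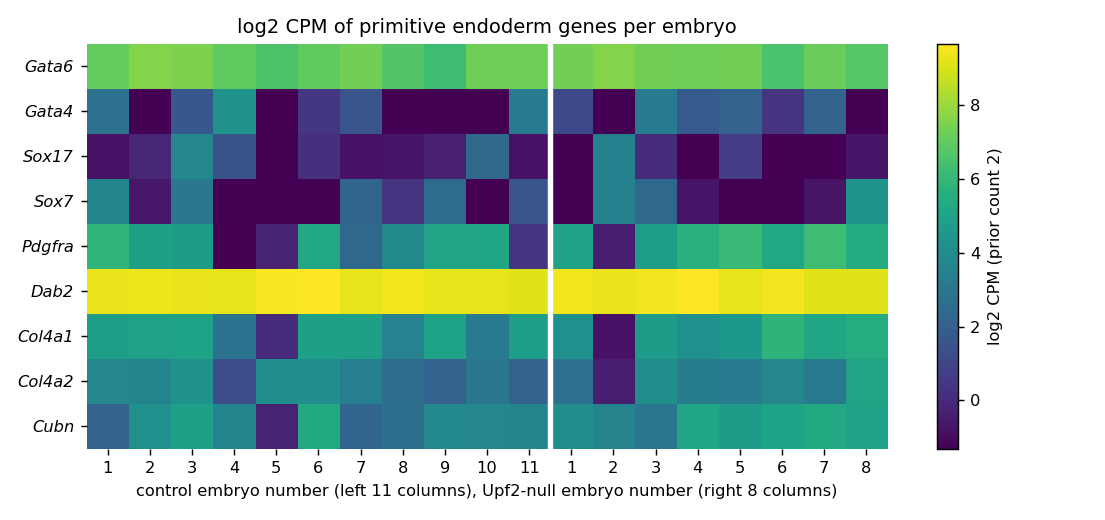
Log2 CPM of each gene (rows) in each embryo (columns; 11 controls to the left of the white line and 8 *Upf2*-null embryos to the right), from dark (low) to yellow (high). *Gata6* and *Dab2* are even across all 19 embryos, *Gata4*, *Sox17* and *Sox7* are each high in a few embryos, only some of them shared, and control embryo 5 and *Upf2*-null embryo 2 are dark for *Pdgfra* and *Col4a1*.

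*Pdgfra*, the platelet-derived growth factor receptor that marks primitive endoderm cells, lies on chromosome 5 from 75152292 to 75198215 (plus strand). In *Upf2*-null blastocysts it ran from 0.354 CPM through a median of 40.1 to 74.9 CPM, and in controls from 0 through 25.6 to 57.6 CPM. Apart from embryo 2, every *Upf2*-null embryo had at least 27.9 CPM and lay above the control median. Among controls, embryo 4 had no count, embryo 5 had 2 counts and embryo 11 had 5. The means were 41.5 ± 23.4 (SD, n = 8) and 21.6 ± 19.0 CPM (SD, n = 11). The log2 fold change of 0.94 was the largest of the 9 genes, but its standard error was 0.78 and its 95% interval ran from −0.68 to 2.56 (edgeR adjusted p = 0.750). It stayed above 0 under all 31 alternatives, from 0.76 to 1.52. The ligand *Pdgfa*, named after its values were seen, had 85.6 ± 26.3 (SD, n = 8) and 83.5 ± 20.5 CPM (SD, n = 11), which gave 0.03 on the log2 scale (edgeR adjusted p = 0.983).

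*Col4a1* and *Col4a2* encode the chains that join into the type IV collagen of the basement membrane. They lie head to head on chromosome 8, *Col4a1* from 11198423 to 11312826 on the minus strand and *Col4a2* from 11312805 to 11449287 on the plus strand, so that their 5′ ends share 22 bases. The shared start is shown because the genes are transcribed away from it in opposite directions, and their covariation is described further on. The RefSeq sequence of GRCm38.p6 there, chr8:11312801-11312830 on the plus strand, is printed with the stretch between the start of *Col4a2* and the start of *Col4a1* in capitals.
Col4a1 and Col4a2 starts: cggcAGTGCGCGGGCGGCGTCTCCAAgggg

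In *Upf2*-null blastocysts *Col4a1* ran from 0.177 CPM through a median of 24.4 to 55.7 CPM, and in controls from 0.663 CPM through 27.4 to 32.5 CPM. *Upf2*-null embryo 2, with 1 count, and control embryo 5, with 3 counts, were the lowest. *Upf2*-null embryos 6, 8 and 7 exceeded every control. The means were 27.4 ± 17.2 (SD, n = 8) and 21.6 ± 11.9 CPM (SD, n = 11), a fitted log2 difference of 0.34 (SE 0.59, edgeR adjusted p = 0.920). It was 0.12 without *Upf2*-null embryo 6, the highest, and 0.54 without *Upf2*-null embryo 2. *Col4a2* was lower, from 0.354 CPM through a median of 9.18 to 33.3 CPM in *Upf2*-null embryos and from 2.11 CPM through 10.4 to 18.8 CPM in controls. Control embryo 5, near 0 for *Col4a1*, had 78 counts of *Col4a2*. For *Col4a2* the fitted log2 fold change was 0.26 (SE 0.54, edgeR adjusted p = 0.940), and it was −0.15 without *Upf2*-null embryo 8, which had the highest level.

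*Dab2* encodes a clathrin adaptor that endocytic epithelia need to sort megalin and cubilin, and lies on chromosome 15 from 6299788 to 6440712 (plus strand). It was the most abundant of the 9 genes and the most even. In *Upf2*-null blastocysts it ran from 548 CPM through a median of 659 to 784 CPM, and in controls from 550 CPM through 636 to 802 CPM. The ranges coincided, and 4 of 8 *Upf2*-null embryos lay above the control median. Its fitted log2 fold change was 0.01 (SE 0.07, edgeR adjusted p = 0.987), with 95% limits that correspond to 0.906-fold and 1.12-fold. Its biological coefficient of variation of 13.8% was lower than that of all but 1.73% of the genes tested. Its highest count was 4065, close to the highest count of any gene in any embryo, 4884, in a table made after duplicate removal, and whether that removal caps its counts was not tested.

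Promoter windows of 300 bases (250 before the RefSeq start and 50 from it on) were available for 5 of the 9 genes, *Pdgfra*, *Col4a1*, *Col4a2*, *Cubn* and *Dab2*, with 6 windows in all. They were searched on both strands for AGATAA, the word GATA factors are known to bind, and for its variants with T as the first letter, G as the last letter or both. A window of *Dab2* held TGATAA at position −179 and, on the other strand, AGATAA at position 14, both counted from 0 at the start. The other 5 windows held none, and 29.8% of all 32851 windows held at least 1 word. The upstream match is printed as the only word found before a start among these genes, at chr15:6299598-6299627 on the plus strand of GRCm38.p6 (RefSeq), with the word in capitals.
Dab2 upstream: tgatttttcttcTGATAAcaggaataggag

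*Cubn* encodes cubilin, the endocytic receptor that works with megalin in visceral endoderm, and lies on chromosome 2 from 13276338 to 13491813 (minus strand). In *Upf2*-null blastocysts it ran from 7.49 CPM through a median of 28.8 to 40.6 CPM, and in controls from 0.442 CPM through 12.8 to 39.9 CPM. The ranges overlapped, with 6 of 8 *Upf2*-null embryos above the control median and control embryos 6 and 3 inside the upper *Upf2*-null range. The means were 25.4 ± 12.04 (SD, n = 8) and 13.9 ± 11.6 CPM (SD, n = 11). The log2 fold change was 0.87 (standard error 0.52, 95% interval −0.21 to 1.95, unadjusted p = 0.108, adjusted p = 0.565 from edgeR), the lowest p of the 9 genes. It stayed above 0 under all 31 alternatives, from 0.74 to 1.43. *Cubn* lies 7.22 megabases from *Upf2* on the same chromosome, so that alleles of *Cubn* inherited together with the targeted allele and the loss of UPF2 cannot be told apart.

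**Figure D3:**
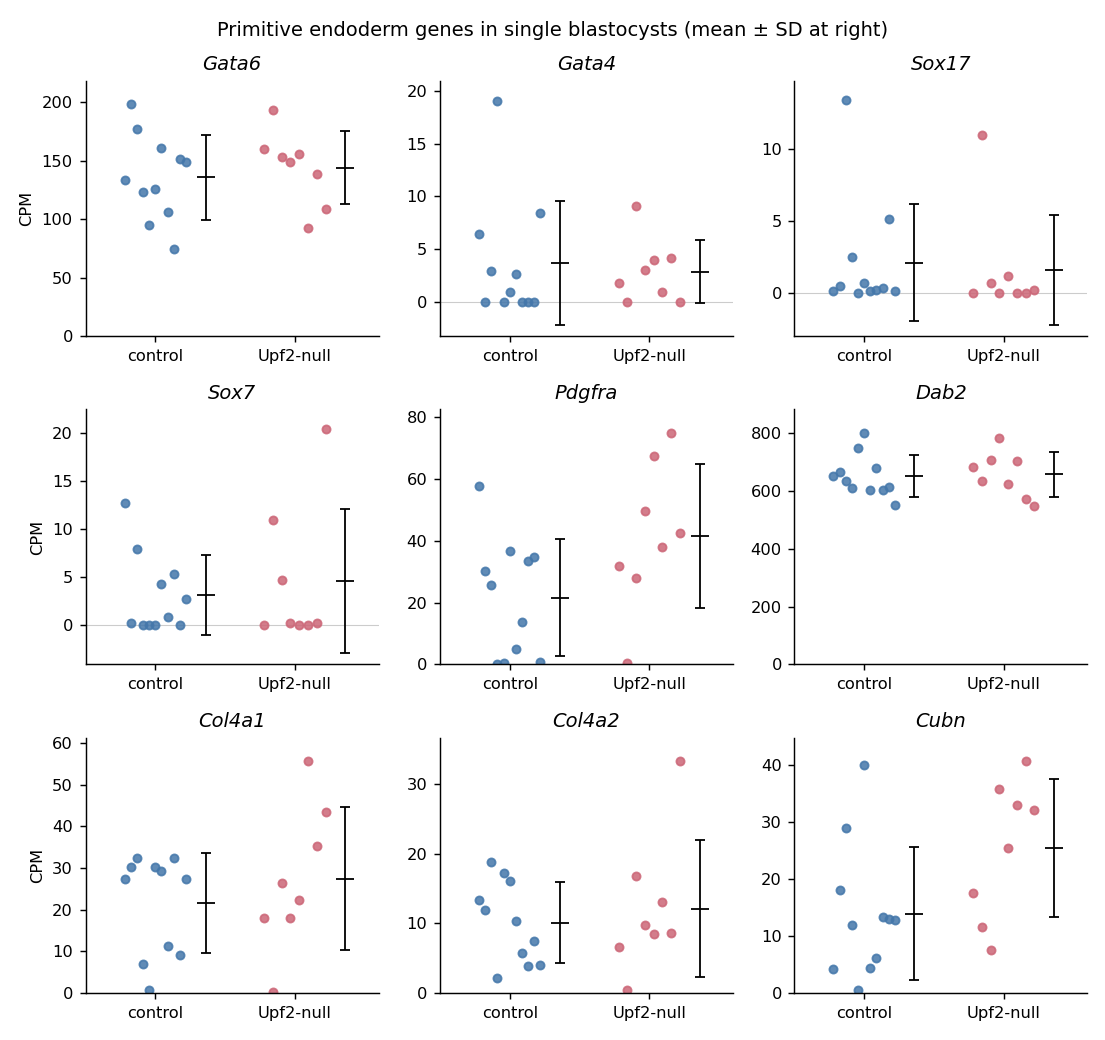
Level of each gene in CPM (vertical axis, linear, a separate scale for each gene) in 11 control (blue) and 8 *Upf2*-null (red) blastocysts, 1 point per embryo, with the mean ± SD at the right of each group. The genotypes overlap for every gene; *Pdgfra* and *Cubn* have the higher means in *Upf2*-null embryos, 41.5 against 21.6 CPM and 25.4 against 13.9 CPM.

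Levels of different genes were compared per kilobase of annotated exon sequence. In descending order of the median over the 19 embryos they were *Dab2* (86.7 CPM per kilobase), *Gata6* (22.9), *Col4a1* (3.66), *Pdgfra* (3.19), *Col4a2* (1.48), *Cubn* (0.896), *Gata4* (0.444), *Sox7* (0.0780) and *Sox17* (0.0498). *Dab2* was above *Gata6*, and *Gata6* above *Col4a1*, in 19 of 19 embryos (exact permutation test by sign changes, two-sided, p = 3.81e-06 for both, the smallest it can give, adjusted p = 1.53e-05 over 8 neighbour comparisons). *Pdgfra* exceeded *Col4a2* in 12 of 19 embryos by 1.34 CPM per kilobase on average (exact permutation test, p = 0.0174, adjusted p = 0.0464). The other 5 neighbours in the order did not differ beyond their spread, with adjusted p-values from 0.108 to 0.645 (exact permutation tests). The medians of *Sox7* and *Sox17* were each the value of an embryo with 1 count, under the 3 counts that a count of 0 allows. Their places in the order are therefore not resolved. By the mean, *Sox7* (1.13 CPM per kilobase) lay above *Gata4* (0.851).

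The next question was whether the genes rise and fall together from embryo to embryo. Log2 CPM was centred on the mean of each genotype, and Pearson's r and Spearman's rho were computed over the 19 embryos for all 36 pairs. Of the 36 values of r, 17 were above 0 and 19 below, with a median of −0.00615. No pair passed an adjusted p of 0.05 in a two-sided permutation test with 100000 resamples, by r or by rho, and 5 pairs had an unadjusted p under 0.05 by r. The 5 were *Pdgfra* with *Col4a1* and with *Col4a2*, *Col4a1* with *Cubn* and with *Col4a2*, and *Gata6* with *Sox17*.

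*Pdgfra* and *Col4a1* had the highest r, 0.724 (permutation p = 0.00515, adjusted p = 0.169 over the 36 pairs), with a rho of 0.517 (permutation p = 0.0311, adjusted p = 0.373). The value was 0.591 within controls and 0.937 within *Upf2*-null embryos. It was 0.533 without the 2 embryos farthest from the *Pdgfra* median. Without *Upf2*-null embryo 2 and control embryo 5, which had at most 3 counts of either gene, r was 0.366. *Col4a1* and *Cubn* had an r of 0.590 (permutation p = 0.0094, adjusted p = 0.169) and a rho of 0.586 (permutation p = 0.0115, adjusted p = 0.373), and r was 0.235 without those 2 embryos, which were also the farthest from the *Col4a1* median. *Pdgfra* and *Col4a2* had 0.601 (permutation p = 0.0146, adjusted p = 0.176), a rho of 0.312 (permutation p = 0.207, adjusted p = 0.934), and r was 0.0494 without the 2 embryos farthest from the *Pdgfra* median and 0.558 without *Upf2*-null embryo 2 and control embryo 5. Over the 6 pairs among *Pdgfra*, *Col4a1*, *Col4a2* and *Cubn*, a grouping made after the values were seen, the median r was 0.576 and the lowest 0.059 (*Col4a2* with *Cubn*, permutation p = 0.792, adjusted p = 0.954), and the median was 0.301 without *Upf2*-null embryo 2 and control embryo 5.

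For the head-to-head collagen genes the value depended on single embryos. Their r was 0.562 (permutation p = 0.0476, adjusted p = 0.343) and their rho 0.469 (permutation p = 0.0502, adjusted p = 0.452). It was 0.932 within the 8 *Upf2*-null embryos and −0.0114 within the 11 controls, where control embryo 5 had 3 counts of *Col4a1* and 78 of *Col4a2*. It was 0.0825 without *Upf2*-null embryo 2, 0.836 without control embryo 5 and 0.581 without both. The difference between the genotypes in r was not tested.

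**Figure D4:**
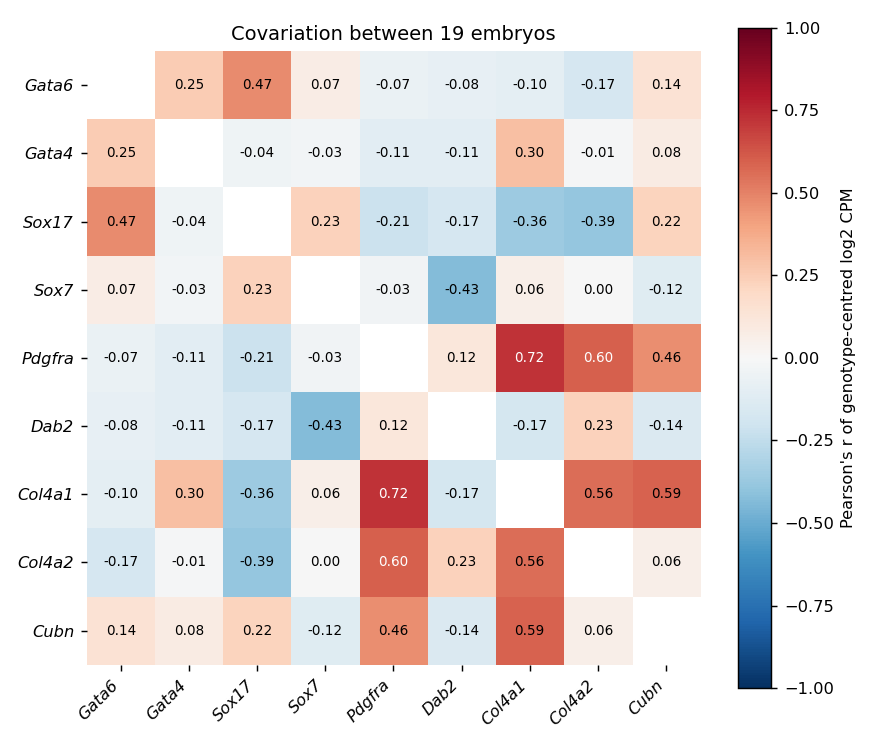
Pearson's r of log2 CPM, centred on the genotype means, for each pair of primitive endoderm genes over 19 embryos (red above 0, blue below 0; values printed in the cells). Among *Pdgfra*, *Col4a1*, *Col4a2* and *Cubn* r reaches 0.72, but is 0.06 for *Col4a2* with *Cubn*, while *Gata6* has its highest r, 0.47, with *Sox17*.

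*Gata6* lay on both sides of 0 with the late genes. Its 8 values of r ran from −0.165 with *Col4a2* to 0.474 with *Sox17*, with 4 above 0 and a median of 0.00282. With *Sox17* the permutation p was 0.0456 (adjusted p = 0.343), the rho was 0.401 (permutation p = 0.0952, adjusted p = 0.686), and r was 0.488 without the 2 embryos farthest from the *Gata6* median and 0.310 without *Upf2*-null embryo 2 and control embryo 5. With *Gata4*, the other GATA factor, r was 0.250 (permutation p = 0.328, adjusted p = 0.954; rho 0.134, permutation p = 0.597, adjusted p = 0.986), and 0.105 without the 2 farthest. Within *Upf2*-null embryos *Gata6* had an r of −0.739 with *Col4a1* and −0.701 with *Col4a2*, against 0.392 and 0.317 within controls. *Upf2*-null embryo 2, with the highest *Gata6* and almost no collagen transcript, is among the former, and the difference was not tested. *Gata4*, *Sox17* and *Sox7* had values of r from −0.0392 to 0.231 with each other.

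The level of *Gata6* relative to the late genes was described as the log2 CPM of *Gata6* minus the mean log2 CPM of the 8 late genes. It ran from 2.71 through a median of 3.55 to 5.47 in *Upf2*-null blastocysts and from 2.88 through 4.18 to 5.40 in controls. *Upf2*-null embryo 2 (5.47) and control embryo 5 (5.40) were the highest of their genotypes. The means were 3.72 ± 0.85 (SD, n = 8) and 3.95 ± 0.77 (SD, n = 11), and their difference of −0.23 (standard error 0.38) was smaller than the spread within either genotype. It was −0.48 without *Upf2*-null embryo 2, −0.0861 without control embryo 5 and −0.336 without both. The difference was −0.399 when *Col4a1*, *Col4a2* and *Dab2* were left out of the late genes. It turned to 0.17 with *Sox17*, *Gata4* and *Sox7* alone as the late genes.

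**Figure D5:**
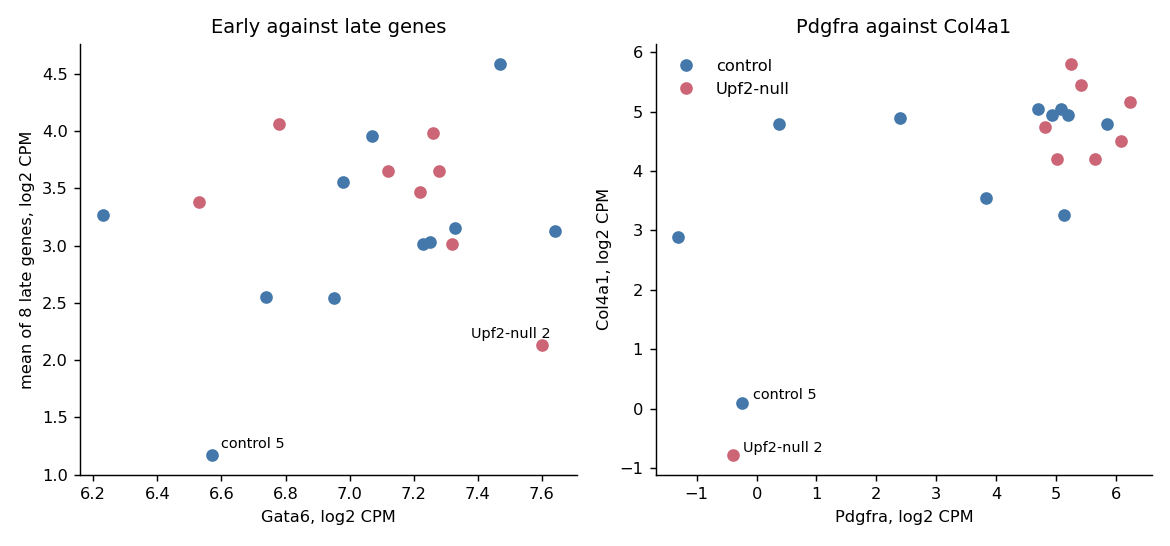
Left, log2 CPM of *Gata6* (horizontal axis) against the mean log2 CPM of the 8 late genes (vertical axis), and right, log2 CPM of *Pdgfra* against *Col4a1*; each point is 1 embryo, blue for control and red for *Upf2*-null. *Upf2*-null embryo 2 and control embryo 5, which are labelled, have the lowest late means, 2.13 and 1.17, and lie apart at the lower left of the right panel.

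Library properties moved with some of the late genes. The number of genes with at least 1 count ran from 14522 (control embryo 5) to 17084. Its r with *Col4a1* was 0.731 (permutation p = 0.00169, adjusted p = 0.0304 over 18 relations with library total and genes detected), its rho was 0.409 (permutation p = 0.0826, adjusted p = 0.318), and r was 0.274 without the 2 embryos farthest out on that number. With *Cubn* r was 0.618 (permutation p = 0.0270, adjusted p = 0.138; rho 0.388, permutation p = 0.115, adjusted p = 0.318) and −0.00151 without those 2. With *Pdgfra* it was 0.580 (permutation p = 0.00937, adjusted p = 0.0843; rho 0.340, permutation p = 0.159, adjusted p = 0.318) and 0.285 without them. *Cubn* also had a rho of −0.676 with the library total (permutation p = 0.00246, adjusted p = 0.0443), where r was −0.493 (permutation p = 0.0306, adjusted p = 0.138) and −0.279 without the 2 farthest. The part of these measures in the correlations between genes was not tested.

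For each gene with a median of at least 10 CPM, the genes whose centred log2 CPM was most like it were looked up among 8976 others, as a description over 19 embryos. *Pdgfra* was most like *Phka2*, a phosphorylase kinase subunit (r = 0.910), *Lrp2*, which encodes megalin (0.899), and *Scd1*, a fatty acid desaturase (0.879). These remained at 0.837, 0.827 and 0.823 without *Upf2*-null embryo 2 and control embryo 5. *Col4a1* was most like *Tmem131* (0.943), *Scap* (0.936), the escort of the sterol-regulated SREBP factors, and *Lamc1*, the laminin gamma 1 chain (0.936). Without those 2 embryos the values were 0.695, 0.526 and 0.553. *Cubn* was most like the noncoding genes *2410006H16Rik* (0.928) and *Zfas1* (0.919) and like *4632427E13Rik* (0.924).

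The genes most like *Gata6* were *Gm27234* (0.808), *Lctl* (0.799) and *Ankrd17* (0.731), and those most like *Dab2* were *Tax1bp3* (0.786) and *Dap3* and *Ptcd3*, which encode mitochondrial ribosomal proteins (0.781 and 0.777). Of the 9 genes, the 5 with a median of at least 10 CPM (*Gata6*, *Pdgfra*, *Dab2*, *Col4a1* and *Cubn*) were ranked in each other's order. *Col4a1* ranked 98th for *Pdgfra*, *Pdgfra* ranked 303rd for *Col4a1*, and *Cubn* 740th. For *Gata6* the best placed of the other 4 was *Cubn*, at 2539.

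A wider list of 42 primitive endoderm genes, none of them among the 9, held receptors, basement membrane components, endocytic proteins and transcription factors. Of the 33 that were tested, 19 were fitted above 0 and 14 below, and neither edgeR, DESeq2 nor voom called any. The median was 0.08. At an unadjusted p under 0.05, 2 of the 33 were higher and 1 was lower, where 12.5% of all genes tested passed in either direction. *Nostrin*, an adaptor of endothelial nitric oxide synthase, had the lowest p, with 6.10 ± 3.78 (SD, n = 8) against 1.76 ± 1.44 CPM (SD, n = 11), a fitted log2 difference of 1.78 (SE 0.60, edgeR adjusted p = 0.262). *Upf2*-null embryos 1, 4, 7, 3 and 8 exceeded every control. *Cxcr4*, a chemokine receptor, had no count in *Upf2*-null embryos and 22 in controls, 21 of them in control embryo 4. *Gata5*, another GATA factor, had 22 counts in *Upf2*-null embryos, 20 of them in embryo 6, and 4 in controls.

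Several FGF receptor, basement membrane and endocytic genes of this list, of which *Fgfr1*, *Fgfr2* and *Lamb1* were picked after their values were seen, differed by less than the spread. *Fgfr1*, carried by the whole inner cell mass, had 35.9 ± 17.5 (SD, n = 8) against 40.8 ± 20.9 CPM (SD, n = 11), and *Fgfr2*, which is high in primitive endoderm and trophectoderm, had 111 ± 54.4 CPM against 104 ± 38.6 CPM. *Lamb1*, the laminin beta 1 chain, had 51.1 ± 33.0 CPM against 39.7 ± 17.6 CPM, and *Lamc1* had 39.8 ± 22.4 CPM against 30.9 ± 14.7 CPM. *Lrp2* had 493 ± 161 CPM against 455 ± 167 CPM. The adjusted p-values of these 5 genes from edgeR lay between 0.878 and 0.963. With *Col4a1*, the 15 basement membrane, collagen-processing and endocytic genes of the list had values of r from 0.043 to 0.936, with a median of 0.697 and all above 0. The same 15 genes ran from −0.289 to 0.821 with *Col4a2*, −0.165 to 0.899 with *Pdgfra* and −0.357 to 0.586 with *Cubn*. Without *Upf2*-null embryo 2 and control embryo 5 the values with *Col4a1* ran from −0.317 to 0.553, with a median of 0.160, 10 above 0 and 5 below. The summed level of the list was lowest in these 2 embryos, at 666 and 949 CPM, where the other embryos reached up to 2254 CPM.

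Markers of the other lineages were measured in the same libraries. Of 16 epiblast markers, 4 were fitted above 0 and 12 below (median −0.29). None was called by edgeR, and DESeq2 called 2 lower, where it called 74 of all 17137 genes tested lower. The epiblast markers with the lowest p from edgeR were *Nanog* at −0.47, *Fgf4* at −2.33 and *Nodal* at 3.98. *Fgf4* encodes the ligand for the FGF receptors above, and *Nodal* had 28 of its 29 *Upf2*-null counts in 1 embryo. The summed level of the epiblast list ran from 1529 to 1757 CPM in *Upf2*-null embryos and from 1633 to 2358 CPM in controls. Of 16 trophectoderm markers, of which *Lrp2* is also in the wider primitive endoderm list, 11 were above 0 and 5 below (median 0.08), and neither edgeR, DESeq2 nor voom called any. *Hand1* (−2.70), *Id2* (0.53) and *Tspan8* (0.67) had the lowest p. The summed trophectoderm level ran from 2308 to 2851 CPM and from 1426 to 2979 CPM. *Star* had the lowest p of the 3 tested cumulus and granulosa cell markers, at 2.08, followed by *Amhr2* at 0.10 and *Cyp11a1* at 0.01. The summed level of the 9 primitive endoderm genes, most of it from *Dab2*, was 829 to 1049 CPM in *Upf2*-null embryos and 756 to 1052 CPM in controls. The part of the other lineages in the values of the 9 genes was not tested.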

How the data were processed

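Whole-embryo RNA was amplified and sequenced by the authors, who trimmed the reads and mapped them onto GRCm38 (STAR 2.5.2a), then dropped PCR duplicates using SAMtools and obtained gene counts from featureCounts. The deposited raw counts of 41388 genes are not normalized and were used here. A second deposited table, named as TPM, holds signal values that equal each count times 1 factor per embryo, not a value per length, with 100% of its 320682 values whole reads within 0.01 after division, and it served as an alternative. Replicates are separate embryos, and no litter or batch is given in the sources used here.

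Counts were tested with edgeR 4.0.16 (robust quasi-likelihood fit, a minimum of 10 counts in 1 or more embryos, Benjamini-Hochberg adjusted p under 0.1, no covariate). DESeq2 1.42.0, limma 3.58.1, other scalings, filters and a replicate block were alternatives, and every embryo was left out in turn. Intervals are at 95%. Correlations used log2 CPM with a prior count of 2, centred on genotype means, and 100000 permutations of embryos within a genotype (numpy 2.4.6), with ranks taken over all 19 embryos before centring for rho. Scripts were tested on simulated data. Coordinates are those of GENCODE M21 on GRCm38. Promoter sequences are from RefSeq, where 5 of the 9 symbols matched. Limits and counting floors cover counting error only.

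Named genes were the 9 genes, the 3 genes most like each one of at least 10 CPM, and, from each wider list, the 3 of lowest p where none was called. The genes and lists were chosen with earlier results of these data known.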

Additional observations from a re-analysis of the deposited data

Results flagged for a closer look

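In the 8 *Upf2*-null embryos, 1 sample lay far from the others for 2 of the 9 genes, by a gap above 0.526 of the range. How often chance gives such a gap was not tested for genes with so few counts. *Sox17* had no count in 4 of these 8 embryos, and *Gata4* had none in 2. *Sox17* in *Upf2*-null embryo 2 was at 11.0 CPM with the next embryo at 1.18 CPM, a gap of 0.892 of the range. Without this embryo the log2 fold change of *Sox17* was −2.70. *Gata4* in *Upf2*-null embryo 3 was at 9.06 CPM with the next at 4.18 CPM, a gap of 0.538 of the range, and without it the log2 fold change was −0.89. Neither gene passed the threshold with or without these embryos. Among controls the same genes were also high in single embryos. *Sox17* was at 13.4 CPM in control embryo 3, with the next control at 5.16 CPM. *Gata4* was at 19.0 CPM in control embryo 4, with the next control at 8.44 CPM. A single high embryo for these genes was therefore not particular to the *Upf2*-null genotype.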

How the results depend on the processing

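No primitive endoderm gene of the 9 and none of the wider list was called in any of 31 alternatives, and no pair of genes passed in any of 28. Directions that turned did so at values far from the threshold, and the cause was not tested. Voom with quality weights gave 1.15 for *Gata4* and −1.23 for *Sox7*, and limma on the scaled table gave 0.16 for *Gata4*. Without *Upf2*-null embryo 2 and control embryo 5, chosen after the data were seen, *Gata6* was −0.0343. Over the fits that left out 1 embryo, the log2 fold change ran from 0.00879 to 0.153 for *Gata6*, −0.888 to 0.417 for *Gata4*, −2.70 to 0.694 for *Sox17*, −0.449 to 1.08 for *Sox7*, −0.0299 to 0.0403 for *Dab2*, 0.764 to 1.20 for *Pdgfra*, 0.115 to 0.536 for *Col4a1*, −0.152 to 0.450 for *Col4a2* and 0.739 to 1.16 for *Cubn*. The r of *Col4a1* and *Col4a2* was −0.0114 in controls alone. The genotype difference in *Gata6* minus the late genes ran from −0.48 to −0.0861 when 1 embryo was left out. It was −0.399 without *Col4a1*, *Col4a2* and *Dab2* among the late genes, and turned to 0.17 with *Sox17*, *Gata4* and *Sox7* alone as late genes. *Sox17* had no value under the filter of 10 counts in 5 embryos.

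Embryos of the 2 genotypes share replicate numbers 1 to 8, but nothing ties a number to a litter. The deviations of same-numbered embryos correlated from −0.308 to 0.172, and none of the 8 *Upf2*-null embryos correlated best with its own number. With the replicate block edgeR called no gene of 17137 (691 at an unadjusted p under 0.05) in place of 33, and *Gata4* was 0.245, *Dab2* −0.0421 and *Col4a2* −0.248. *Gata4*, *Sox17* and *Sox7* had counts under 10 in 10, 15 and 11 of the 19 embryos. The part of sequencing depth in these low counts was not tested.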
